A study of Rattus norvegicus with 6 samples.

Results

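A single locus on chromosome 9 gave the most abundant circular RNA of the rat thalamus in this series, and its circles are described here. The leading circle, novel_circ_0047434, spans 94463647 to 94481167 on the plus strand. It was grouped with every circRNA on that chromosome and strand whose span overlaps it, which gave 12 of the 32445 circRNAs in the deposited table. The leader was picked for its abundance over all libraries, so its high level is a description and not a finding. The choice did not use the comparison of CFA with saline, though earlier results of these data were known when it was made. The files used here do not pair circRNA identifiers with genes, so the host gene is not named, the labelled thalamus could not be checked against marker genes, and coordinates are those of the headers in the deposited sequence file, for which the sources used here name no genome build.

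Circular RNAs form when the spliceosome joins a downstream splice donor back to an upstream splice acceptor, which closes the RNA between them into a ring without a cap or a poly(A) tail. One acceptor can be joined to several donors, a choice called alternative back-splicing, so that 1 gene can give a family of circles that share an end. Circles of this kind are plentiful in the brain, where many come from genes with protein-coding exons, and most are not known to be translated.

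The samples were thalami of 6 rats. In the CFA group, 3 rats had both temporomandibular joints injected with 50 µL of complete Freund's adjuvant, an oil emulsion with killed mycobacteria that keeps a joint inflamed, and in the saline group 3 rats had 50 µL of saline in the same joints. Both groups were injected 2 times per week and sampled after 14 days, and the labels used here give no strain, sex or age. Libraries held 573696 to 1176178 circRNA reads. RPM stands for reads per 1000000 circRNA reads of a library and has no length term.

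Parts of the spliced sequence deposited for the leader are shown because the later results turn on what it holds beyond the shorter circles of the locus. Bases are counted 5′ to 3′ from the upstream end. Capitals mark internal stretches that are absent from the 490 nt circle novel_circ_0047433, whose downstream end lies 4 nt before that of the leader, and lower case marks flanking bases, 15 on a side. The second stretch is shown by its first part.
Leader, bases 116 to 256: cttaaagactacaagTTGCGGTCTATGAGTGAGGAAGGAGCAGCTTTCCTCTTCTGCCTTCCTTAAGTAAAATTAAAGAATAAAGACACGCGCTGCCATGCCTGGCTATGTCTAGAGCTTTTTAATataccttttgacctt
Leader, bases 319 to 618: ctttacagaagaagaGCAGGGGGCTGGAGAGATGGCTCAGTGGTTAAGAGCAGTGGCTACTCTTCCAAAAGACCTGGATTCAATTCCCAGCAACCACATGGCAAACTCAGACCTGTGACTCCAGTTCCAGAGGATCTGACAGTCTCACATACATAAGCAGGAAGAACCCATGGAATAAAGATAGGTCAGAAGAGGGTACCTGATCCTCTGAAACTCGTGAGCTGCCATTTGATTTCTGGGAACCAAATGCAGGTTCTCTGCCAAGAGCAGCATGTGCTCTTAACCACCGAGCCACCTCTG
Leader, bases 983 to 1207: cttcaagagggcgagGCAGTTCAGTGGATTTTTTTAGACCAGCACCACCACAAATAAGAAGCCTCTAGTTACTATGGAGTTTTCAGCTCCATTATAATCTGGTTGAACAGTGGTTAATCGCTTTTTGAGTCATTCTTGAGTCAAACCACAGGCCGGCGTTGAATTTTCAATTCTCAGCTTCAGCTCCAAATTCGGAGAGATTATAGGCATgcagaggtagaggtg

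The junction sequences of the locus show which ends were joined. Each is 58 nt long, with the last 29 bases of the circle in lower case and its first 29 bases in capitals, and in all 12 circles these matched the ends of the spliced sequence.
novel_circ_0047434 (1345 nt): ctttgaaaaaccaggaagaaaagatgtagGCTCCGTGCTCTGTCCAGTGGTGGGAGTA
novel_circ_0047433 (490 nt): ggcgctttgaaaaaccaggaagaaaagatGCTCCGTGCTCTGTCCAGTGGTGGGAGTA
novel_circ_0047431 (1502 nt): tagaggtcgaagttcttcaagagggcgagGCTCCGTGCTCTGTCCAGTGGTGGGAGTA
novel_circ_0047430 (896 nt): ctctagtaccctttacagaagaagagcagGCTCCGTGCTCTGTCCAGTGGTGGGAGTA
novel_circ_0047438 (778 nt): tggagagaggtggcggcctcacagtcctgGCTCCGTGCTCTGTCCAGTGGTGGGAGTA
novel_circ_0047435 (677 nt): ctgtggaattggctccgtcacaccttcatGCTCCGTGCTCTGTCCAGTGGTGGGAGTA
novel_circ_0047439 (698 nt): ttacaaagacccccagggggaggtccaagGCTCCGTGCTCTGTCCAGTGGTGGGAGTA
novel_circ_0047423 (375 nt): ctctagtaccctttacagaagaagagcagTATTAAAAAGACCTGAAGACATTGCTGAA
novel_circ_0047445 (463 nt): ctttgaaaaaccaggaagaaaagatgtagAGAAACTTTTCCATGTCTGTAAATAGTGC
The capitals are the same in the first 7 of these lines, since these circles begin at the same base. Of the 12 junctions, 9 carried this downstream part, and 0 of the 12 were shared with another identifier of the table.

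Circles of the locus were a family built on 1 acceptor. The upstream end at 94463647 was used by 9 of the 12 circles, the leader and 8 others, and these 9 held 99.8% of the 77462 reads of the locus. Among all 20966 upstream ends, 23 (0.110%) had 9 or more circles, the most was 15 and the median was 1. These ends were not matched on reads, while this locus was chosen for the reads of its leader. Of its 9 circles, those of 338, 490 and 587 nt had 17, 20 and 40 reads over all libraries. Whether the number of circles at the end at 94463647 exceeds that of ends with as many reads was not tested. The donors joined to it lay at 94464799 (896 nt, novel_circ_0047430), 94474809 (1502 nt, novel_circ_0047431), 94480240 (338 nt, novel_circ_0047432), 94481163 (490 nt), 94481167 (the leader), 94481682 (677 nt, novel_circ_0047435), 94487071 (587 nt, novel_circ_0047437), 94504892 (778 nt, novel_circ_0047438) and 94513131 (698 nt, novel_circ_0047439). The genomic spans of these 9 circles thus ran from 1153 to 49485 nt.

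The downstream end of the leader was used far less often with other acceptors. It was shared by 1 other circle, the 463 nt novel_circ_0047445 from 94474695, with 22 reads over all libraries. The 375 nt novel_circ_0047423, from 94431993, and the 418 nt novel_circ_0047428, from 94459965, shared neither end with the leader, but ended at the donors of the 896 nt and the 1502 nt circle. These 3 circles outside the family held 128 reads together.

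**Figure D1:**
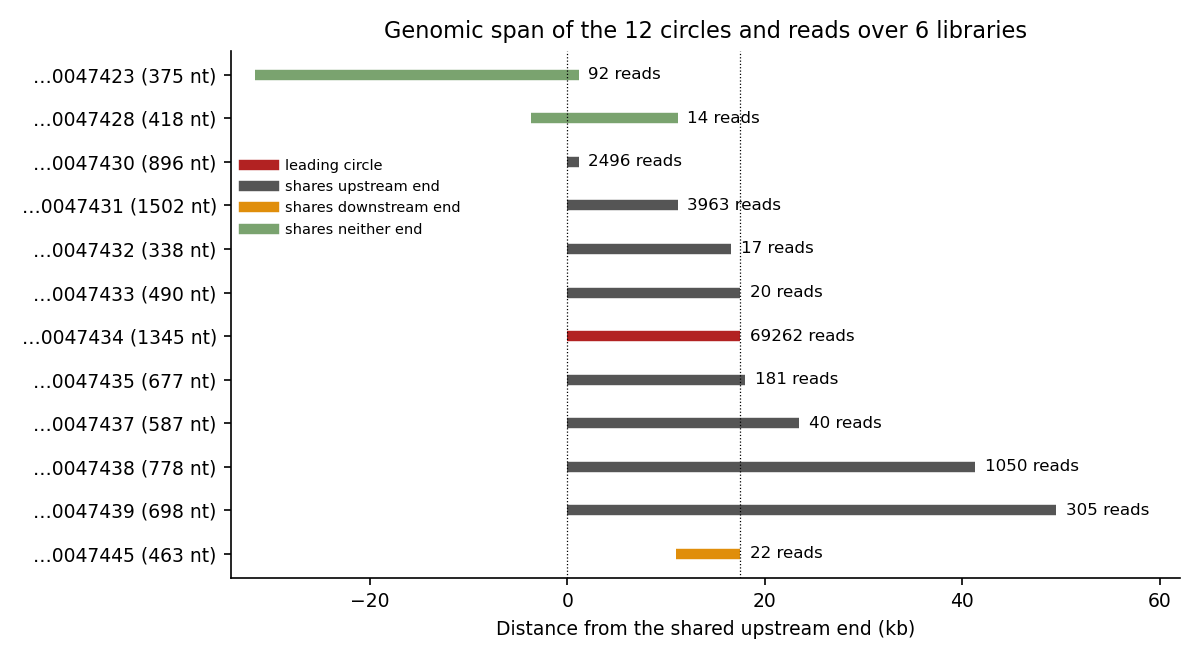
Genomic span of each of the 12 circles, as distance in kb from the shared upstream end, with the reads summed over the 6 libraries; dotted lines mark the ends of the leader. Of the 12 circles, 9 begin at the same base, and the leader holds 69262 of the 77462 reads.

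The leader was read in every library at a level that varied little. Its reads were 9170, 9174 and 11664 in CFA replicates 1 to 3, and 9308, 17752 and 12194 in saline replicates 1 to 3. These were 13966, 14079 and 12911 RPM after CFA and 16225, 15093 and 13027 RPM after saline. Saline replicate 1 was the highest and CFA replicate 3 the lowest, and the groups overlapped. It made up 1.29% to 1.62% of all circRNA reads of a library.

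Next in mean level came circles of other loci. The 531 nt novel_circ_0040899 of chromosome 7, 30727478 to 30735182, had 9252 to 17185 RPM, and it passed the leader in saline replicate 3 alone, so these neighbours in the order of levels are not separated by their spread. The 1016 nt novel_circ_0019207 of chromosome 1, 204959173 to 204961691, had 5365 to 7986 RPM, below the leader in each of the 6 libraries. Over all libraries the coefficient of variation of the leader's RPM was 8.90%, the third lowest among the 20 circRNAs of highest mean, whose median was 18.3%.

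The other circles of the locus were far lower in reads. The 1502 nt circle had 882, 766 and 769 RPM after CFA and 1185, 736 and 688 RPM after saline. It exceeded the 896 nt circle in each library, which had 437, 482 and 493 RPM after CFA and 692, 569 and 410 RPM after saline. For both, saline replicate 1 was the highest library and saline replicate 3 the lowest, so the CFA values lay inside the saline range. The 778 nt circle followed with 152, 287 and 167 RPM after CFA and 195, 236 and 237 RPM after saline.

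Below these, the 698 nt circle had 46.5 to 81.9 RPM and the 677 nt circle 24.4 to 47.2 RPM, ranges that just overlap. The remaining 6 circles had 14 to 92 reads over all libraries, and each was listed at 0 in at least 1 library. The lowest count above 0 in the table was 2, so a listed 0 may be 1 read. The 490 nt circle, 4 nt from the leader at its downstream end, had 0, 0 and 8 reads after CFA and 4, 4 and 4 reads after saline. Among the 6, the 375 nt circle had the most reads, 92 against 14 to 40 for the others, and was the highest in each saline library. The counts of the other 5 are too few to order them.

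**Figure D2:**
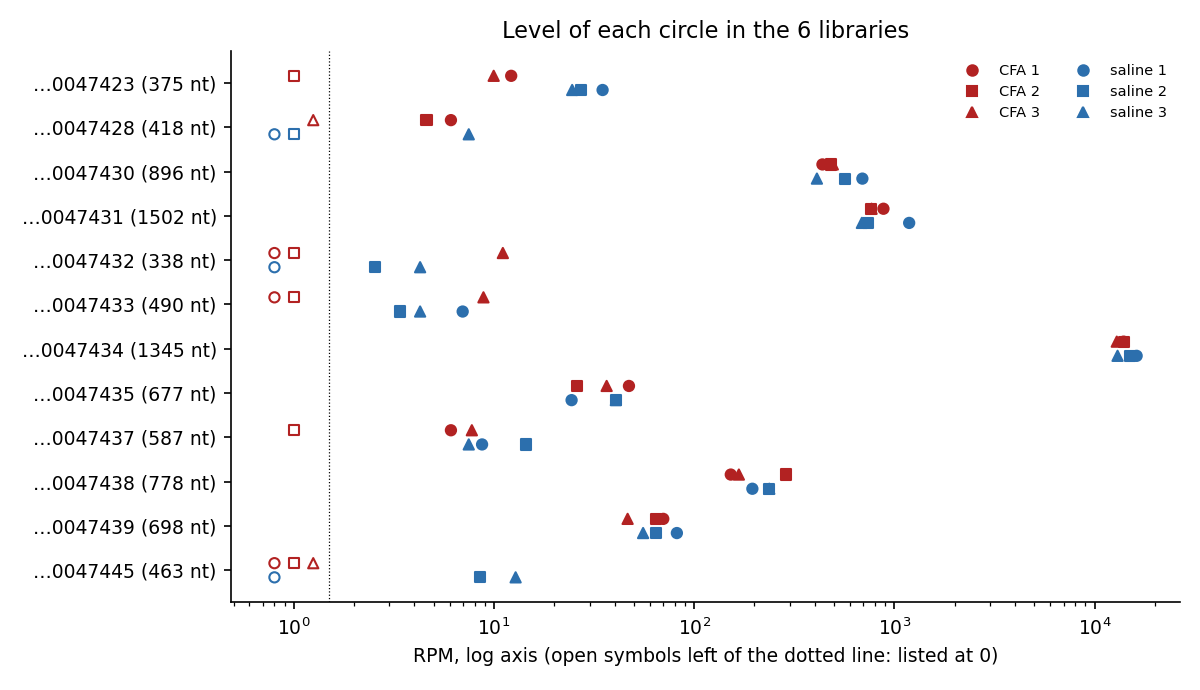
RPM of each circle in each library on a log axis, red for CFA and blue for saline, with open symbols for circles listed at 0. The leader lies between 12911 and 16225 RPM in all 6 libraries, and 6 of the 12 circles were read in every library.

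The leader's share of the locus was nearly constant between animals. It held 89.6%, 89.6% and 89.3% of the locus reads in the CFA libraries and 87.9%, 89.9% and 89.7% in the saline libraries. Saline replicate 1 was the lowest, with an exact 95% binomial interval (Clopper-Pearson) of 87.3% to 88.5% that does not reach those of the other 5 libraries, which lay between 88.7% and 90.3%. The intervals cover counting error only, and may be too narrow even for that, since reads amplified by PCR are not independent molecules. In that library the 1502 nt circle held 6.42% of the locus reads, against 4.38% to 5.66% in the others, and the 896 nt circle 3.75%, against 2.81% to 3.41%.

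Shares did not differ detectably between the groups. The leader's share was 89.5 ± 0.204% after CFA and 89.2 ± 1.08% after saline (mean ± SD over n = 3), a difference of 0.351 percentage points (p = 1, exact permutation test, two-sided). With 3 animals against 3 no p below 0.1 is possible. Without saline replicate 1 the difference turned to -0.272 percentage points (exact two-sided permutation test, p = 0.2). With reads divided by spliced length, a setting added after the data were seen, the leader held 85.2% to 87.4% of the locus and the difference was 0.818 percentage points (exact two-sided permutation test, p = 0.2). Per read of the 1502 nt circle there were 15.8, 18.4 and 16.8 leader reads in the CFA libraries and 13.7, 20.5 and 18.9 in the saline libraries, so the CFA values lay inside the saline range.

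**Figure D3:**
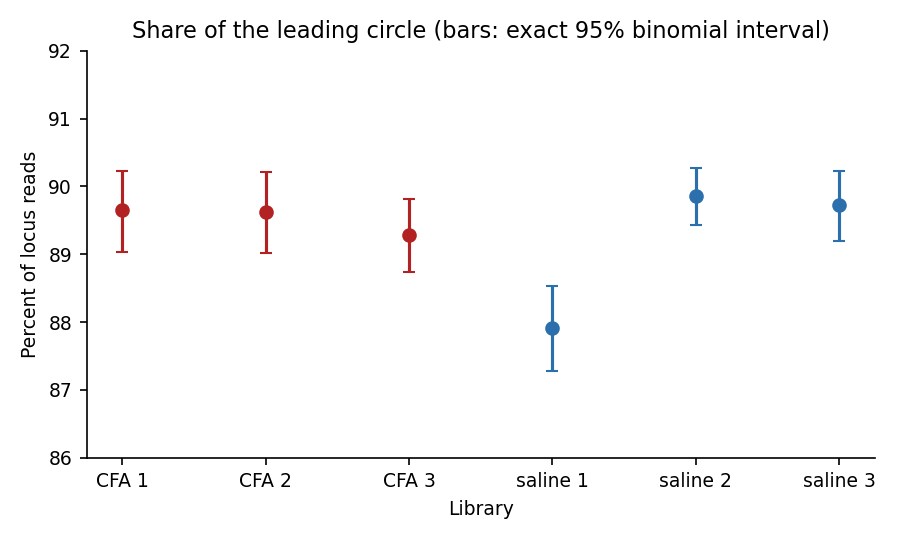
Percent of the locus reads held by the leading circle in each library, with exact 95% binomial intervals; the axis runs from 86% to 92%. Saline replicate 1 stands at 87.9%, and the other 5 libraries at 89.3% to 89.9%.

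So strong a lead is uncommon among loci with many circles. The run of circRNAs that overlap on this strand holds 17 circles, the 12 above and 5 further downstream, and the leader had 89.2% of its reads. Among the 705 runs with 10 or more circles and at least 100 reads, the leading circle had a median of 40.2%, and 9 runs had a higher share than 89.2%. Of all 3290 runs with several circles and at least 100 reads, 548 (16.7%) had a higher one. These shares are descriptions with no test, as the leader was chosen by its reads.

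The level of the leader did not change detectably after CFA. The leader averaged 13652 ± 644 RPM in the CFA rats and 14781 ± 1621 RPM in the saline rats (mean ± SD over n = 3), and its log2 fold change, CFA minus saline, was -0.14 ± 0.19 (SE). The 95% interval of this value, from -0.52 to 0.23, is a ratio of 0.700 to 1.17. The quasi-likelihood test of edgeR gave an adjusted p of 0.9999 (Benjamini-Hochberg over 22426 circRNAs). The interval bounds the change at these 3 animals per group, and it does not show that the groups are alike.

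None of the 12 circles passed the test, where 0.125% of all tested circRNAs passed (28 of 22426), and all 12 had enough reads to be tested. At an unadjusted p below 0.05 edgeR had 1 of the 12, against 2.68% of all circRNAs tested. DESeq2 had 0 of the 12 at that threshold, against 379 of all 22426. Log2 fold changes were below 0 for 10 of the 12 circles (9 with DESeq2, RLE factors or total counts alone), against 52.6% of all tested circRNAs. Their median was -0.19, and -0.05 over all tested circRNAs. The circles come from 1 locus and were counted in the same libraries, so their signs are not independent of each other.

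Within the family, log2 fold changes with their SE were -0.26 ± 0.30 (896 nt), -0.20 ± 0.34 (778 nt), -0.18 ± 0.46 (698 nt) and -0.12 ± 0.27 (1502 nt). The 677 nt circle averaged 36.6 ± 10.6 RPM in the CFA rats and 35.3 ± 9.41 RPM in the saline rats (mean ± SD over n = 3). The sign of its log2 fold change, between -0.24 and 0.21 over all settings, changed with the scaling. The 1502 nt circle turned to 0.09 without saline replicate 1. For the 3 with the most reads after the leader the 95% intervals reached from -0.87 to 0.47, so changes within those bounds could not be told from none with 3 animals per group.

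**Figure D4:**
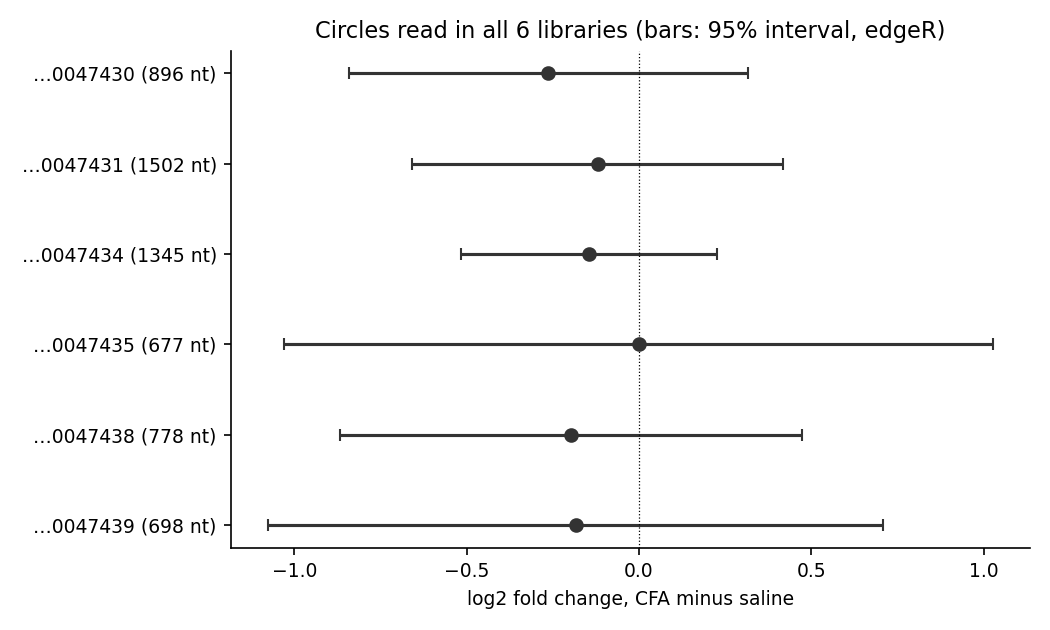
Log2 fold change, CFA minus saline, with its 95% interval from edgeR, for the 6 circles read in all libraries. Each interval spans 0, and that of the leader, from -0.52 to 0.23, is the narrowest.

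The 375 nt circle was the one circle of the locus whose groups did not overlap, where 6.63% of all tested circRNAs did not. It had 8, 0 and 9 reads after CFA and 20, 32 and 23 reads after saline, or 7.38 ± 6.49 and 28.9 ± 5.35 RPM (mean ± SD over n = 3). Its log2 fold change was -1.93 ± 0.88 (SE), with a raw p of 0.0283 and an adjusted p of 0.912 in edgeR (Benjamini-Hochberg), so it did not pass. Without CFA replicate 2, which lists it at 0, the log2 fold change was -1.37. This circle begins 31654 nt upstream of the leader and is singled out here after its values were seen. The 463 nt circle was listed at 0 in the 3 CFA libraries and in saline replicate 1, and had 10 and 12 reads in saline replicates 2 and 3. For it no fold change is given, and the adjusted p from edgeR (Benjamini-Hochberg) was 0.912 as well.

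Summed over the 12 circles, the locus had 15249 ± 686 RPM in the CFA rats and 16590 ± 1975 RPM in the saline rats (mean ± SD over n = 3). The log2 fold change of the sum was -0.14 ± 0.17 (SE), with an adjusted p of 0.9999 in edgeR (Benjamini-Hochberg over 7581 loci, of which 0.0132% passed). In bulk tissue, any change in the number of cells that make these circles could not be told from a change in circles per cell. The 11 circles other than the leader had 1597 ± 42.3 RPM together in the CFA rats and 1808 ± 380 RPM in the saline rats (mean ± SD over n = 3), where saline replicate 1 was highest with 2229 RPM. Between 7 and 10 of the 12 circles were seen in a CFA library and 9 to 12 in a saline library (p = 0.3, exact permutation test, two-sided). These numbers were not scaled to library depth. The libraries of 903443 to 1176178 circRNA reads (CFA replicate 3, saline replicates 2 and 3) had 10 to 12. Those of 573696 to 656598 (CFA replicates 1 and 2, saline replicate 1) had 7 to 9. Over all circRNAs, 15793 to 19425 were seen in a CFA library and 14764 to 21677 in a saline library. Whether the groups differ at equal depth was not tested.

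The deposited sequences of circles with nearly the same ends differed in what lies between. All 490 bases of novel_circ_0047433 were found in order in the leader, in blocks of at least 15 bases, and 855 bases of the leader were absent from it. Of these, 4 lie at the downstream end and 851 form 3 internal stretches, marked in capitals above, of 111, 545 and 195 bases. The sources used here do not say how the internal sequence of a circle was set, and a read over the back-splice junction does not show what lies inside the circle. The 1345 nt are therefore the authors' sequence for the leader and not a measured length.

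Few of the other circles held all bases of these stretches, 2 for that of 111 bases, 0 for that of 545 and 1 for that of 195. The stretch of 111 bases spans 131 to 241 of the leader, counted from its upstream end. All of its bases were found in the 896 nt and the 1502 nt circle, the runners-up in reads. In both, sequence that the leader lacks lies before base 131 and again between bases 191 and 192. The stretch is thus not contiguous there. The stretch of 545 bases (334 to 878) was found in part, 67.9%, in the 1502 nt circle, while the other circles held at most 0.734% of it, or 4 bases at its edge. The stretch of 195 bases (998 to 1192) was found in full in the 463 nt circle and in part, 53.8% to 54.4%, in the 677, 587 and 778 nt circles. The leader was the 1 circle with all 3. Only 176 of the 32445 circRNAs (0.542%) had a spliced length of at least 1345 nt, where the median was 384 nt.

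**Figure D5:**
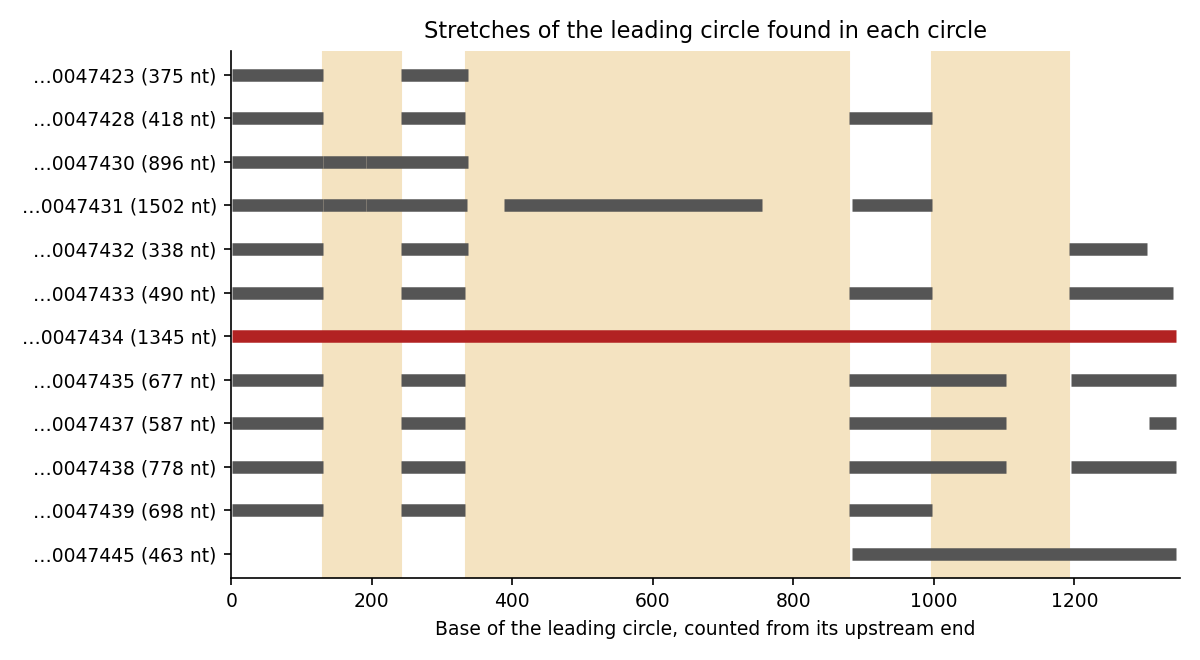
Stretches of the leading circle, by base from its upstream end, that were found in each of the 12 circles in blocks of at least 15 bases; shading marks the 3 internal stretches absent from the 490 nt circle, and sequence that the leader lacks is not drawn. The first 130 bases occur in 11 of the 12 circles, and the middle of the stretch of 545 bases in the leader and the 1502 nt circle.

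The stretch of 545 bases held a repeat-like pair of arms. Between bases 338 and 370 of the leader, 33 bases were made up of runs of 25 that also occur in 6 circles of other loci (both strands were searched), and no other part of the leader was shared in this way. The letters there resemble the head of the rodent B2 family of short interspersed repeats, a mobile element copied many times in the genome. Part of it recurs reversed and complemented further on, as the arms in capitals show, at 358 to 370 and at 593 to 605.
First arm: atggctcaGTGGTTAAGAGCAgtggctac
Second arm: gcagcatgTGCTCTTAACCACcgagccac
An exact inverted repeat of at least 13 bases within the sequence was found in 3.48% of the 402 circRNAs of 1000 nt or more and in 1.84% of the 217 within 20% of the leader's length. This is a property of the letters and says nothing of how the RNA folds.

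The open reading frames of the leader's deposited sequence, whose interior was not measured, were short for its size. Read as a circle for up to 4 turns, its longest frame from ATG to a stop was 174 nt (57 codons before the stop), from base 877 to 1050, and did not cross the junction. Among the 217 circRNAs of 1078 to 1613 nt the median was 1074 nt, with frames that meet no stop counted at 4 turns, and 211 of them (97.2%) had a longer frame. Without asking for a start codon its longest stop-free run was 252 nt. A frame that never meets a stop was found in 27 of those 217 (12.4%), in 17.2% of all circRNAs and in 0 of the 12 circles of this locus. Of the 12, 1 had a spliced length that is a multiple of 3. In a ring of any other length, a frame that goes on turning passes through all 3 reading frames. The 12 circles also share sequence, so they are not independent cases. The 174 nt frame of the leader begins in the stretch of 545 bases and ends in that of 195 bases.

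A frame that enters the shared first block from upstream was followed through the family. In the 375 nt circle an ATG at base 109 opened a frame of 267 nt to the end of the sequence, which runs through the leader's first block. In the leader this frame starts at base 2 and met a TAA stop at base 179, after 59 codons and within the stretch of 111 bases. The stop is shown in capitals.
Leader, first stop: ctcttctgccttcctTAAgtaaaattaaag
In the 896 nt and the 1502 nt circle, which hold further sequence before that place, the frame met a TGA at base 152 after 50 codons. It went on for 91 codons in the 338 nt circle and 130 codons in the 677, 587 and 778 nt circles, which share a TAG at base 392. In the 490 nt and the 698 nt circle it passed the back-splice junction and ran for 185 and 256 codons. These places are those of the deposited sequences, whose interiors were not measured. Whether the frame is that of a protein was not analysed here.

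At the junction itself, the 4 extra bases of the leader decide what the joined ends spell. The lower-case part of the 490 nt junction above ends in at and is followed by G, which forms an ATG across the junction, at base 489, that opens the frame just described. The frame from it was 561 nt, or 114% of the length of the circle. The 677 nt circle also forms an ATG across its junction, at base 676, with a frame of 396 nt. The leader's junction has 4 more bases after the same at, and there the ATG is followed at once by a TAG stop. By reads the 490 nt circle was rare, with 20 in all against 69262 for the leader.

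The leader was searched for seed matches of miRNAs. These are short RNAs that guide repression by pairing of their seed, bases 2 to 8, and circles with many matches have been discussed as sponges. Mature sequences of 15 of 16 miRNAs named for brain or inflammation were found in RefSeq's rat table (GRCr8). The exception was miR-124, which was looked up as rno-miR-124-3p and not matched. Matches to the seed were sought on the circle's own strand, across the junction too. The leader held 2, 1 each for miR-9 and miR-21, where the median among the 217 circRNAs of similar length was 2. The seed is in capitals below, and so is its match in the leader.
rno-miR-9a-5p: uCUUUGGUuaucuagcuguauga
Match at bases 1220 to 1226: tggtttctACCAAAGaagttttg
rno-miR-21-5p: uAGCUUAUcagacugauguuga
Match at bases 705 to 711: taatctttATAAGCTcaagacac
A match for miR-9, a miRNA abundant in neural tissue, was present in 14.7% of circRNAs of similar length and in 6 of the 12 circles of the locus. One for miR-21, often raised in inflamed tissue, was present in 8.29% of circRNAs of similar length and in 2 of the 12 circles. The circles of the locus with a match share the block of sequence that holds it, so they are not independent cases. The leader held no match for miR-7, miR-138, miR-128, miR-132, miR-146a, miR-155, miR-223, let-7, miR-29, miR-34, miR-103, miR-125 or miR-183. A match is a property of the letters and shows no binding.

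Across the 6 libraries the circles of the family did not all vary like the leader. Pearson's r with the leader, over log2(TMM-scaled RPM + 1), was 0.77 (896 nt), 0.43 (1502 nt) and 0.11 (778 nt), which ranked them 70, 421 and 765 by likeness in a pool of 1658 circRNAs that includes the leader. The circRNAs whose pattern was most like the leader's came from other loci, namely novel_circ_0018597 of chromosome 1 (r = 0.96), novel_circ_0030797 (0.95) and novel_circ_0032912 (0.94) of chromosome 4, novel_circ_0037950 of chromosome 6 (0.94) and novel_circ_0046738 of chromosome 9 (0.94). Each of these r rests on 6 points that share library and depth, and 13 circRNAs exceeded 0.9, so the values are a description and carry no p.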

How the data were processed

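Circular RNA reads of 6 rat thalami were analysed, 3 per group, with groups and replicate numbers from the sample titles. Per the labels' protocols, libraries were made with poly-T beads and random hexamers, although circRNAs lack a poly(A) tail. The submitters' processing notes name DESeq2 1.20.0, featureCounts 1.5.0-p3, HISAT2 2.0.5 and StringTie 1.3.3b. The sources used here give neither the circRNA caller nor the genome build nor which reads were counted. The deposited column names of CFA replicate 3 start with a different letter from CFA replicates 1 and 2, and the sources do not say why.

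The deposited table gives, per the file headers, a raw read count per circRNA and library, which was used for all tests, and a value named TPM. That deposited value is RPM, since 1 read is worth the same for every circRNA of a library. All RPM in the text were recomputed from the deposited counts. Sequences and positions come from the deposited sequence headers, where starts are counted from 0 and had 1 added. 44 headers repeat an identifier, 0 of them at this locus.

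circRNAs with at least 10 counts over the 6 libraries (22426) were tested with edgeR 4.0.16 in R 4.3.3 (TMM, robust quasi-likelihood fit, Benjamini-Hochberg over all, threshold 0.05). Each standard error is the size of the log2 fold change divided by the square root of the F statistic. Loci were runs of overlapping circRNAs on a strand, with the 12 circles kept as 1 feature, and DESeq2 1.42.0 was an alternative. Libraries are described as separate animals, and any pair of them differed by a chi-square of at least 7.49 per degree of freedom, so none repeats another. Names follow a rule: the leader, circles that share an end with it, the 5 with the most reads, the next 2 circRNAs in level and the 5 most alike, those with reads in every library and a mean of at least 100 RPM being compared. Other circles of the locus named were chosen after their values were seen. The members and lists were chosen with earlier results of these data known. A match to proteins was planned to name the host gene and was not run, since no protein table was used here.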

Additional observations from a re-analysis of the deposited data

How the results depend on the processing

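The log2 fold change of the leader stayed between -0.21 and -0.09 over 14 alternative settings and that of the summed locus between -0.20 and -0.09 over 15, and neither passed in any (lowest adjusted p 0.869 and 0.989 in edgeR with Benjamini-Hochberg adjustment). In the same 14 settings 0 circles of the locus were called and the median of their log2 fold changes was -0.28 to -0.13, over the circles tested: 7 with filterByExpr, 8 with at least 30 counts, 11 without CFA replicate 3 or saline replicate 3, and 12 otherwise. Leaving out 1 library each, the difference in the leader's share was -0.272 to 0.698 percentage points, and the log2 fold change was -0.27 to 0.95 for the 418 nt circle, -0.24 to 0.090 for the 1502 nt circle and -0.24 to 0.21 for the 677 nt circle. The 677 nt circle, at -0.00065, was above 0 with RLE (0.030), total counts alone (0.043), filterByExpr (0.015), at least 30 counts (0.019), DESeq2 (0.030) and the replicate block (0.0020). With the replicate block the 338 nt circle turned to -0.70. Over all circRNAs 28 calls became 0 with filterByExpr (130 at an unadjusted p below 0.05 in edgeR), 0 with at least 30 counts (237), 4 with DESeq2 and 45 with the replicate block, and leaving out 1 library each gave 15 (without saline replicate 1) to 40. The cause was not tested. The longest frame of the leader was 174 nt also as a line, and 252 nt, as a circle or a line, with no start codon asked for. CFA and saline libraries with the same number had r between -0.071 and 0.023 in their deviations from the group means. Those with different numbers had r between -0.056 and 0.063, and CFA replicate 1 alone correlated best with its own number. As both ranges lie near 0, the check gave no sign of pairing by number and cannot exclude it. The leader under the block had a log2 fold change of -0.14 and its share a difference of 0.351 percentage points. Circles with under 100 reads are limited by depth, as a listed 0 may be 1 read.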

Other observations

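The run of overlapping circRNAs goes on downstream of the 12 circles with 5 more. Of these, the 537 nt novel_circ_0047447, from 94504713 to 94513131, was read in every library, with 18, 5 and 36 reads in the CFA libraries and 19, 35 and 20 in the saline libraries. It shares its downstream end with the 698 nt circle of the family above and had a log2 fold change of -0.16 ± 0.64 (SE). The other 4 had 5 to 27 reads over the 6 libraries.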
